A study of Mus musculus with 6 samples.

Results

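The genes described here encode the constitutive proteasome apart from its catalytic subunits, together with the proteins that assemble, activate or inhibit it. They were chosen by symbol from a fixed list of 42 genes, and all 42 were found among the 50600 gene identifiers in the files. RNA was measured in cortical thymic epithelial cells (cTECs), the stromal cells of the thymic cortex on which thymocytes are positively selected. The 3 KO libraries (replicates A, B and C) came from cTECs of Psmb11-/- mice and the 3 WT libraries (replicates A, B and C) from cTECs of Psmb11+/+ mice. Both carry the strain name B6.B6CB-Psmb11tm1Smta, the mice were 8 to 10 weeks old, and the molecule was polyadenylated RNA. The labels do not say whether replicates of a genotype were separate animals or pools, so p-values measure only the spread between these libraries. They also do not describe how cTECs were isolated.

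The 26S proteasome degrades proteins tagged with ubiquitin. Its 20S core is a barrel of alpha subunit rings, which gate the entry, around beta subunit rings, some of whose members carry the proteolytic sites. The 19S particle caps the barrel: ATPases in its base unfold the substrate, other base subunits bind ubiquitin, and its lid removes ubiquitin. PA28 is an alternative cap induced by interferon. In cTECs the catalytic subunit Psmb11 (β5t) takes the place of Psmb5 or Psmb8, which gives the thymoproteasome, a form needed for the normal positive selection of CD8 T cells.

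Psmb11 (ENSMUSG00000072423.4, chromosome 14, 54621433 to 54629556, GRCm38) had 67, 36 and 41 counts across the KO libraries (A, B, C), against 8293, 9297 and 10027 counts across the WT libraries, which fits the genotypes in the labels. The libraries held 34265035 to 36713388 gene counts in KO and 34660349 to 39224292 in WT. Markers of other cells differed between the genotypes. The summed level of 12 cTEC markers was 8222 to 9264 CPM (counts scaled to the library total with TMM factors) in KO libraries and 12690 to 13113 CPM in WT libraries, and all 12, Psmb11 among them, were called lower in KO. The summed level of 9 medullary epithelial markers was 5336 to 5718 CPM in KO libraries and 3967 to 4536 CPM in WT libraries, and all 9 were called higher. Markers of fibroblasts and pericytes (6 of 8 higher), of dendritic cells and macrophages (7 of 8) and of tuft cells (6 of 7) also stood higher in KO. The 11 thymocyte markers summed to 38.6 to 73.5 CPM in KO, highest in replicate A, and to 43.3 to 51.1 CPM in WT. No thymocyte, endothelial, B cell or erythroid marker was called. Of these lists 10 of 11, 5 of 6, 2 of 5 and 1 of 5 markers had enough counts to be tested, so little is known of the last 2. None of the listed markers was at 0 in all 6 libraries. These differences in markers accompany every comparison below, and their part in the proteasome results was not tested. In bulk samples, fewer cells of a type and less RNA per cell cannot be told apart.

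The promoters of the members were searched for 4 known motifs. RefSeq windows from 250 bases before to 50 bases after the start site (GRCm38.p6) were matched for 36 of the 42 genes, all but Psmb1, Psmb2, Psmc3, Psmd3, Psmd7 and Psmg2. On both strands, the motifs searched were TGACNNNGC, the core of the antioxidant response element through which Nfe2l1 acts on proteasome genes, the CCAAT box, the GC box GGGCGG and the TATA box TATAAA. The TGACNNNGC motif was present in 5 of the 36 genes (13.89%), against 13.99% of 27025 genes with a window. These were Adrm1, Psmd9, Psme4, Psmc6 and Psmd12, of which Psmd12 was called lower in KO and the other 4 were not called. CCAAT was present in 13 of the 36 genes (36.11%), against 41.06% of all genes. By sub-complex it ranged from 0 of 4 assembly factor genes of the 20S core to 5 of the 7 alpha ring genes. It was present in 36.0% of the members called lower and in 36.36% of those not called lower. GGGCGG was present in 23 (63.89%), against 38.2% of all genes, and TATAAA in 4 (11.11%), against 15.67%. Motifs can overlap one another, as in Psmd9. For 6 members on which the results turn, the 250 bases before the start site follow, 5′ to 3′ on the gene's strand, in lower case with the motifs, on either strand, in capitals. Psmb4 and Psma5 had the lowest values relative to WT, Psmd9 and Adrm1 hold the antioxidant response element core and were not called, and the neighbours Psme1 and Psme2 moved in opposite directions.
Psmb4, chr3:94886959-94887208, minus strand: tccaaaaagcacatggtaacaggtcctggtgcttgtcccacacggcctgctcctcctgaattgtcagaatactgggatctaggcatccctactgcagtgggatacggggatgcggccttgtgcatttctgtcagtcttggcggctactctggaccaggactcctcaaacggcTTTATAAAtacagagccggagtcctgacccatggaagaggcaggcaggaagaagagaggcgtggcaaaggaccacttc
Psma5, chr3:108256676-108256925, plus strand: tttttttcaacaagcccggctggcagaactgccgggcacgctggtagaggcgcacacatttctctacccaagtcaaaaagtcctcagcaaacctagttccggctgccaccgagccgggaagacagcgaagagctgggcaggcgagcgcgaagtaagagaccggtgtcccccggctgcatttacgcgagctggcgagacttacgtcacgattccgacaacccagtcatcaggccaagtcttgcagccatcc
Psmd9, chr5:123227940-123228189, plus strand: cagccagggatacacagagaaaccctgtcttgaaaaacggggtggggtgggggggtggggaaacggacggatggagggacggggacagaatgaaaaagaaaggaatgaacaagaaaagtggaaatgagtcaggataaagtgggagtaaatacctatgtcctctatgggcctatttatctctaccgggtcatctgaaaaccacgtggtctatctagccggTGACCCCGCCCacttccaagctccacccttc
Adrm1, chr2:180171338-180171587, plus strand: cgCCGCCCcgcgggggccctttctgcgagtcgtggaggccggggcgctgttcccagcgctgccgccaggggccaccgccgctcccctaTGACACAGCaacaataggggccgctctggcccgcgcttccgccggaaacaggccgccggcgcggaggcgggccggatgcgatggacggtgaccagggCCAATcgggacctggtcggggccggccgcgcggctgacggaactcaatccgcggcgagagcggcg
Psme1, chr14:55578244-55578493, plus strand: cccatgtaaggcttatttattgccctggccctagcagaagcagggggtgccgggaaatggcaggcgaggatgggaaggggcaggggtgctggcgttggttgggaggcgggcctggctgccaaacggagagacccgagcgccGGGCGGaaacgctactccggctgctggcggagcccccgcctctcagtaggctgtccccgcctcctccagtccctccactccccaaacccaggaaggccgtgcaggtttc
Psme2, chr14:55591102-55591351, minus strand: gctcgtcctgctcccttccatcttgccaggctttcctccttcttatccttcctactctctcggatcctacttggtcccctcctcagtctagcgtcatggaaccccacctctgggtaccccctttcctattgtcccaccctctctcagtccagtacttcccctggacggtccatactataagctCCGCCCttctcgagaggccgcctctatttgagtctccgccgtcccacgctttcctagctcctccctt
The capitals in Psmb4 are TATAAA read on both strands, those in Psmd9 are TGACNNNGC overlapping GGGCGG, and those in Adrm1 are GGGCGG, TGACNNNGC and CCAAT. In Psme1 and Psme2 they are GGGCGG, and Psma5 has none of the 4 motifs in this stretch. Psme2 has more than 1 window, of which the first is printed. The start sites are those of RefSeq. For Psme1 and Psmd9 the whole printed stretch lies inside the gene span of the GENCODE annotation, which gave the gene positions in this text. For Adrm1 that span starts at 180171485, so part of the stretch, with its CCAAT, lies inside it. The Psmb4 and Psme2 stretches overlap their gene spans only in their last bases.

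Most subunits of the 20S core and the 19S particle were modestly lower in KO cTECs, and the assembly factors, chaperones and activators were lower less uniformly. Over all 42 genes, which all passed the low count filter, 30 fell, Psme1 was the 1 gene that rose, and 11 were not called (edgeR quasi-likelihood test, adjusted p below 0.05 over 16938 genes). In the same test 10.7% of all genes were called lower and 12.3% higher. At a mean level of 20 CPM or more, which 37 of the members reach, 29 of those 37 members were called lower, against 18.4% of all genes at that level. The median log2 fold change of the members was -0.19, a change of -12.2%, against -0.00082 for all genes tested and -0.02 for those of at least 20 CPM. The CPM values of KO and WT did not overlap for 36 of the 42 members, against 39.3% of all genes. Of the 29 subunits of the 20S core and 19S particle, 25 fell and 4 had no call, at a median of -0.21. Among the other 13 genes there were 5 falls, 1 rise and 7 without a call, at a median of -0.06. No test of the difference between these groups of genes was made. The falls were small: only Psmb4 and Psma5 lay below -0.3. Tested against a fold change of 1.1 with edgeR's glmTreat, 9 members were called lower, against 3.46% of all genes. With limma on log2(TPM + 1), 17 of the 30 were called, against 4.48% of all genes. Without WT replicate C, the library whose removal cost most calls, 25 members fell, against 6.67% of all genes.

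**Figure D1:**
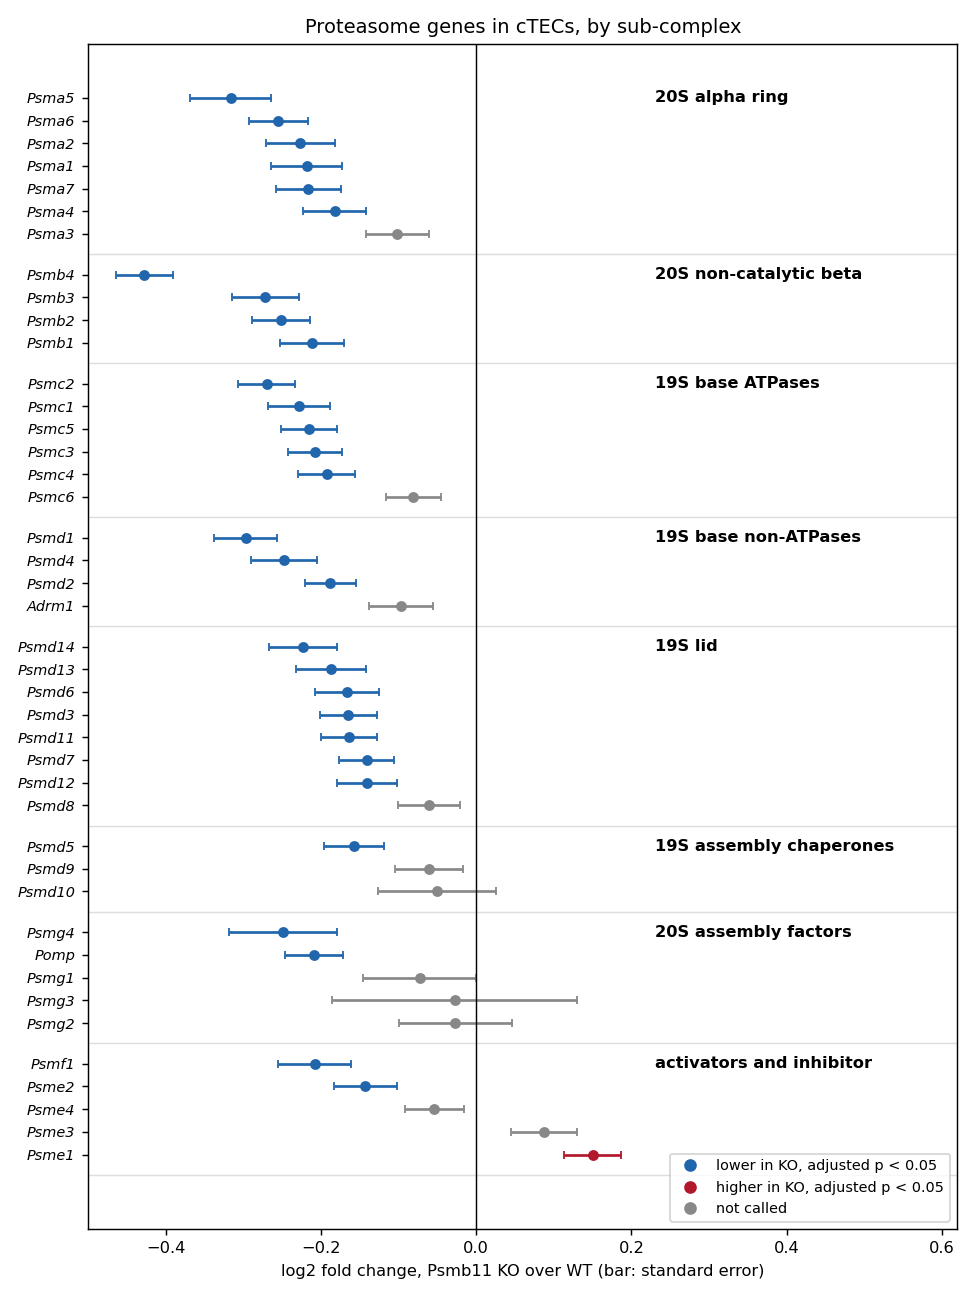
Log2 fold change (KO over WT, horizontal axis) of each of the 42 genes with its standard error as a bar, grouped by sub-complex and coloured by call. Of the 29 subunits of the 20S core and 19S particle all lie to the left of 0, and among the remaining 13 Psme1 (0.15) and Psme3 (0.09) lie to the right. On log2(TPM + 1) Psmd5, Psmd9 and Psmg1 also lie above 0 (0.0540, 0.0122 and 0.00266).

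The alpha ring, whose subunits form the gate of the core and dock its caps, fell in 6 of its 7 genes, at a median log2 fold change of -0.22. Psma5 (chromosome 3, 108256926 to 108279974) had 63.8, 59.4 and 54.8 CPM in the KO libraries (A, B, C), against 74.0, 71.7 and 76.1 CPM in the WT libraries (A, B, C). Every KO library lay below every WT library, with KO replicate C lowest. Its log2 fold change was -0.32 (SE 0.05, edgeR adjusted p = 9.93e-04), the second largest fall among the 42 genes. Psma6 had 83.8, 83.1 and 81.8 CPM in the KO libraries, against 99.5, 95.2 and 102 CPM in the WT libraries. The KO values lay close together and below the WT values, a log2 fold change of -0.25 (SE 0.04, edgeR adjusted p = 4.98e-04). Psma3 had the smallest difference, with 79.9, 78.8 and 74.6 CPM in KO libraries, against 81.0, 83.2 and 86.2 CPM in WT libraries. Its groups did not overlap, but the log2 fold change of -0.10 was not called (edgeR adjusted p = 0.0957). Psma1, Psma2, Psma4 and Psma7 fell by 0.22, 0.23, 0.18 and 0.22 on the log2 scale.

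All 4 non-catalytic beta subunits fell, with a median log2 fold change of -0.26. These subunits form the walls of the proteolytic chamber beside the catalytic ones. Psmb4 (chromosome 3, 94884093 to 94886961), the beta subunit added last during assembly, had 128, 127 and 126 CPM in the KO libraries, against 167, 166 and 178 CPM in the WT libraries. The KO libraries were nearly equal, and all lay far below the WT libraries. The log2 fold change was -0.43 (SE 0.04, edgeR adjusted p = 1.39e-05), the largest fall among the 42 genes. Psmb1 fell least of the 4, with 124, 116 and 117 CPM in KO libraries, against 135, 134 and 145 CPM in WT libraries (log2 fold change -0.21, SE 0.04, edgeR adjusted p = 0.00300). Psmb2 and Psmb3 fell by 0.25 and 0.27 on the log2 scale. All 6 alpha and 4 beta calls held with each library left out in turn. In the same libraries the catalytic subunits Psmb5, Psmb6 and Psmb7 fell by 0.21, 0.19 and 0.15 on the log2 scale and the immunoproteasome subunits Psmb9 and Psmb10 by 0.27 and 0.44, while Psmb8 averaged 137 ± 2.06 CPM over the KO libraries and 129 ± 5.27 CPM over the WT libraries (SD, n = 3 each) and was not called. Psmb5 counts are uncertain, since they made up 51.2% of the reads that RSEM assigned to the gene, and its call was lost without WT replicate A or B (edgeR adjusted p = 0.0706 and 0.0758). Psmb5 also lies 0.0073 Mb from Psmb11, the nearest to it of the genes described, and the part of this position in its value was not tested. Psmb7 lost its call without WT replicate A or C (edgeR adjusted p = 0.0558 and 0.0709) and with unstranded counts (edgeR adjusted p = 0.268).

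In the base of the 19S particle, 5 of 6 ATPases fell, with a median log2 fold change of -0.21. Psmc2, one of these unfolding ATPases, had 126, 120.3 and 121 CPM in the KO libraries, against 152, 144 and 147 CPM in the WT libraries. The genotypes were well apart, with a log2 fold change of -0.27 (SE 0.04, edgeR adjusted p = 2.50e-04). Psmc1, Psmc3, Psmc4 and Psmc5 fell by 0.23, 0.21, 0.19 and 0.22 on the log2 scale. Psmc6 was the exception, with 93.9, 94.5 and 91.5 CPM in KO libraries, against 100.4, 99.2 and 96.5 CPM in WT libraries. These values did not overlap, but the log2 fold change of -0.08 was not called (edgeR adjusted p = 0.125). Psmc6 lies 9.29 Mb from Psmb11 on chromosome 14.

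Of the 4 other base subunits 3 fell, among them the ubiquitin receptor Psmd4 but not the receptor Adrm1. Psmd1, a large scaffold subunit, had 121, 122 and 113 CPM in the KO libraries, against 142, 144 and 150.2 CPM in the WT libraries. Its log2 fold change was -0.30 (SE 0.04, edgeR adjusted p = 2.65e-04), with KO replicate C lowest. Psmd2, the other large scaffold, averaged 199 ± 2.89 CPM over the KO libraries and 226 ± 3.27 CPM over the WT libraries (SD, n = 3 each) and fell by 0.19 on the log2 scale. Psmd4, a ubiquitin receptor, fell by 0.25 on the log2 scale, a call lost with limma on log2(TPM + 1) (adjusted p = 0.0751). Adrm1, the receptor that also anchors the deubiquitinase Uchl5, had 58.5, 54.8 and 57.7 CPM in KO libraries, against 59.5, 61.5 and 61.8 CPM in WT libraries. Its log2 fold change was -0.10 (SE 0.04, edgeR adjusted p = 0.111), and the difference between Adrm1 and Psmd4 was not tested. With RSEM expected counts Adrm1 was called lower (log2 fold change -0.12, edgeR adjusted p = 0.0381). The counts used here were 77.2% of the reads that RSEM assigned to Adrm1.

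The lid fell in 7 of 8 genes, at a median log2 fold change of -0.16. Psmd14, the deubiquitinase that removes ubiquitin chains as the substrate enters, had 57.4, 59.7 and 54.1 CPM in KO libraries, against 67.7, 65.3 and 67.0 CPM in WT libraries. This was the largest fall in the lid (log2 fold change -0.22, SE 0.04, edgeR adjusted p = 0.00300). Its partner Psmd7 averaged 108 ± 2.09 CPM over the KO libraries and 119 ± 2.56 CPM over the WT libraries (SD, n = 3 each) and fell by 0.14 on the log2 scale. The scaffold subunits Psmd3, Psmd6, Psmd11, Psmd12 and Psmd13 fell by 0.17, 0.17, 0.16, 0.14 and 0.19 on the log2 scale. Psmd8 had 78.2, 74.8 and 72.8 CPM in KO libraries, against 80.3, 76.7 and 78.5 CPM in WT libraries, values that overlap, and it was not called (log2 fold change -0.06, edgeR adjusted p = 0.312). Psmd12 was called with all libraries but not without KO replicate A or C or WT replicate A or B (edgeR adjusted p from 0.0526 to 0.0777). Psmd6 lost its call without WT replicate C (edgeR adjusted p = 0.0539), and Psmd7 lost it without WT replicate A or C (edgeR adjusted p = 0.0537 and 0.0527).

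**Figure D2:**
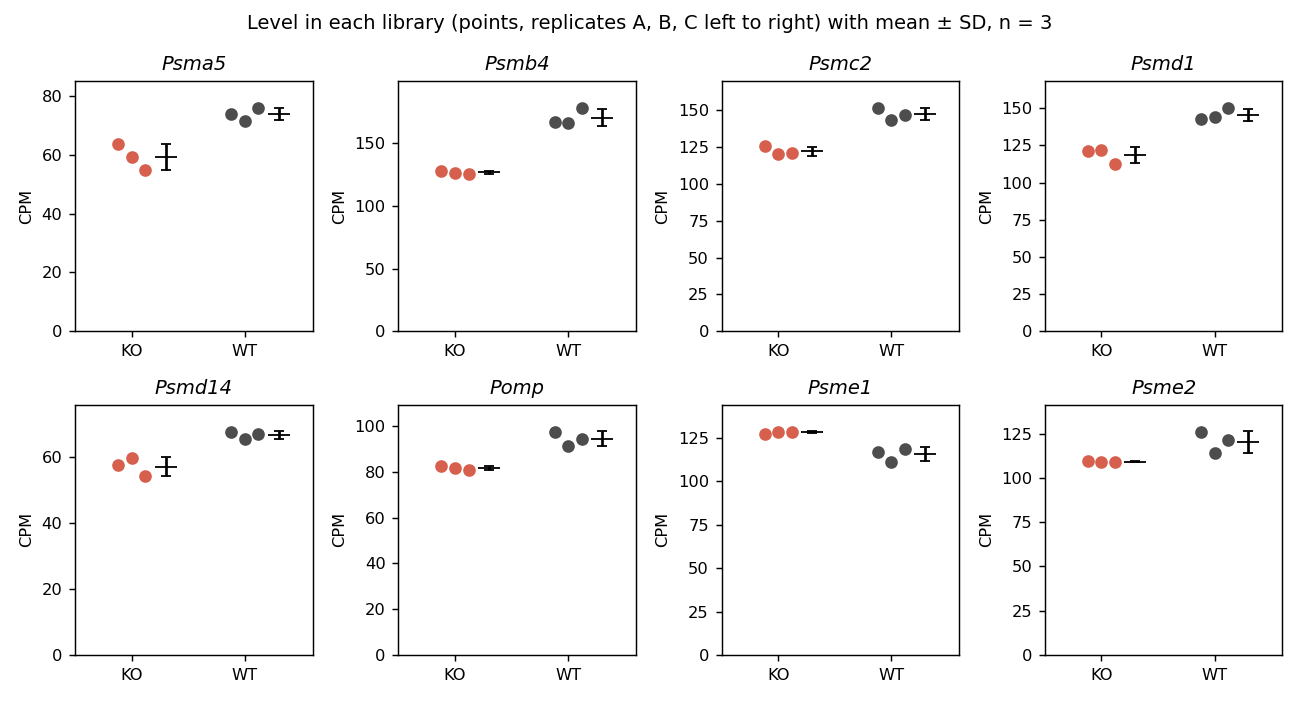
Level in CPM (vertical axes start at 0) of 8 genes in each KO and WT library, one point per library, with the mean and SD of 3 libraries beside the points. The KO points lie below the WT points for every gene shown except Psme1, where they lie above.

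Of the 3 chaperones that help assemble the 19S base, 1 was called. Psmd5 had 49.4, 48.1 and 48.1 CPM in KO libraries, against 53.1, 54.6 and 54.6 CPM in WT libraries (log2 fold change -0.16, SE 0.04, edgeR adjusted p = 0.0122). That call was lost without WT replicate B or C (edgeR adjusted p = 0.0504 and 0.0535). On the per-length scale it ran the other way, at 33.2 ± 2.89 TPM in KO libraries and 31.8 ± 1.31 TPM in WT libraries (SD, n = 3 each), a difference that limma on log2(TPM + 1) did not call (adjusted p = 0.673). The effective length that RSEM used for Psmd5 was 2395 ± 201 bases in KO and 2677 ± 67.7 bases in WT. Psmd9 had 33.0, 33.5 and 33.3 CPM in KO libraries, against 34.4, 34.6 and 35.1 CPM in WT libraries, a small gap that was not called (edgeR adjusted p = 0.357). Psmd10, known as the oncoprotein gankyrin, had 16.8, 14.8 and 15.6 CPM in KO libraries, against 16.1, 15.6 and 17.1 CPM in WT libraries. Its groups overlapped, and it was not called (edgeR adjusted p = 0.688).

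Among 5 assembly factors of the 20S core, Pomp and Psmg4 were called lower and the other 3 were not called. Pomp, which guides beta subunits onto the alpha ring and is then degraded, had 82.6, 81.6 and 80.9 CPM in the KO libraries, against 97.6, 91.3 and 94.5 CPM in the WT libraries. The KO libraries lay together below the WT libraries (log2 fold change -0.21, SE 0.04, edgeR adjusted p = 0.00170), and the call held with each library left out. It was lost with glmTreat (adjusted p = 0.0812) and on the per-length scale, where Pomp had 195, 205 and 177 TPM in KO libraries, against 209.7, 200.2 and 199 TPM in WT libraries. Those values overlap, and limma on log2(TPM + 1) did not call them different (adjusted p = 0.421). Psmg4 had 18.4, 16.3 and 18.0 CPM in KO libraries, against 22.0, 20.1 and 20.6 CPM in WT libraries (log2 fold change -0.25, SE 0.07, edgeR adjusted p = 0.0224), a call lost on leaving out KO replicate B, WT replicate A or WT replicate C (edgeR adjusted p from 0.0574 to 0.0916). It was the 1 assembly factor called by limma on log2(TPM + 1) (adjusted p = 0.0489). Its partner in the alpha ring chaperone pair, Psmg3, averaged 4.43 ± 0.809 CPM over the KO libraries and 4.52 ± 0.569 CPM over the WT libraries (SD, n = 3 each) and was not called. Psmg3 counts are uncertain, being 44.4% of the reads that RSEM assigned to it. The other pair, Psmg1 and Psmg2, was not called either. Psmg2 had 18.4, 21.0 and 18.0 CPM in KO libraries, against 19.7, 18.8 and 20.1 CPM in WT libraries, and Psmg1 averaged 15.4 ± 0.533 CPM over the KO libraries and 16.2 ± 0.890 CPM over the WT libraries (SD, n = 3 each).

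The activators held the 1 member that rose. Psme1 and Psme2 encode the alpha and beta subunits of PA28, which assemble into a mixed ring, and they are neighbours on chromosome 14 (55578123 to 55581529 and 55587441 to 55591113, GRCm38), 0.957 and 0.966 Mb from Psmb11. Psme1 had 127, 129 and 128 CPM in KO libraries, against 117, 111 and 119 CPM in WT libraries. The KO libraries all lay above the WT libraries (log2 fold change 0.15, SE 0.04, edgeR adjusted p = 0.0105), and the call was lost without WT replicate B (edgeR adjusted p = 0.0585). Psme2 had 109, 109 and 109 CPM in KO libraries, against 126, 114 and 121 CPM in WT libraries. It fell (log2 fold change -0.14, SE 0.04, edgeR adjusted p = 0.0237), a call lost on leaving out KO replicate B, KO replicate C, WT replicate A or WT replicate C (edgeR adjusted p from 0.0556 to 0.107). With limma on log2(TPM + 1) Psme2 was not called (adjusted p = 0.0772). The TPM ratio of Psme1 to Psme2 was 0.811, 0.892 and 0.862 in the KO libraries and 0.672, 0.701 and 0.697 in the WT libraries, without overlap. In TPM each gene was already without overlap, in opposite directions, so the ratio had to separate and is no further evidence. Of 194 genes tested within 10 Mb of Psmb11, 12.9% were called lower and 8.76% higher, and the part of this position in the Psme1 and Psme2 values was not tested. The subunit of the nuclear PA28 ring, Psme3, averaged 62.0 ± 0.654 CPM over the KO libraries and 58.3 ± 2.60 CPM over the WT libraries (SD, n = 3 each), and it was not called. Psme4, which encodes the nuclear activator PA200, averaged 68.9 ± 1.57 CPM among KO libraries and 71.6 ± 1.68 CPM among WT libraries (SD, n = 3 each), and it was not called either. Psmf1, a regulator that inhibits the 20S core in vitro, had 50.3, 53.1 and 47.0 CPM in KO libraries, against 57.2, 58.6 and 58.0 CPM in WT libraries. It fell (log2 fold change -0.21, SE 0.05, edgeR adjusted p = 0.00731) and kept its call with each library left out. The call was lost with glmTreat (adjusted p = 0.151) and with limma on log2(TPM + 1) (adjusted p = 0.107).

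Levels of different genes were compared per length, as TPM. The mean level per gene was 202 ± 5.94 TPM in KO and 245 ± 6.93 TPM in WT for the non-catalytic beta subunits. For the alpha ring it was 174 ± 8.08 and 198 ± 5.79 TPM, for the base ATPases 135 ± 2.38 and 151 ± 1.54 TPM, and for the lid 90.2 ± 0.471 and 97.7 ± 0.863 TPM in KO and WT (SD, n = 3 each). The order of these 4 sub-complexes was thus the same in both genotypes, but the order was not kept for every sub-complex. The base subunits other than ATPases averaged 117.4 TPM per gene in KO and 132.2 TPM in WT. The activators and inhibitor averaged 125.7 TPM per gene in KO and 124.3 TPM in WT. These base subunits thus stood above the activators and inhibitor in each WT library and below them in each KO library, which was not tested. Core transcripts exceeded lid transcripts per gene: the alpha ring stood at 1.93 ± 0.0810 times the lid in KO and 2.03 ± 0.0433 times in WT, values that overlap between genotypes. Assembly chaperones of the base were far lower, at 30.2 ± 1.23 TPM in KO and 29.7 ± 0.346 TPM in WT. Among assembly factors Pomp had the highest level, with 193 TPM in KO and 203 TPM in WT. Single genes ranged from Psme4 (18.9 TPM in KO, 19.4 TPM in WT) to Psma7 (283 TPM in KO) and Psmb4 (331 TPM in WT). Psmb4 had the highest level of the 42 genes in WT and in KO was exceeded by Psma7 and Psme2 (249.6 TPM against 283 and 282 TPM).

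The level of PA28 was also set against that of the alpha ring within each library. Psme1 and Psme2 together summed to 524, 523 and 522 TPM in the KO libraries (A, B, C) and to 521, 500.1 and 527 TPM in the WT libraries, which overlap. The alpha ring summed to 1269, 1230 and 1157 TPM in KO and 1367, 1362 and 1434 TPM in WT. PA28 relative to the alpha ring was 0.413, 0.425 and 0.451 in the KO libraries and 0.381, 0.367 and 0.368 in the WT libraries, which do not overlap. All 42 genes together summed to 5224, 5135 and 4968 TPM in KO and 5666, 5608 and 5775 TPM in WT. These sums describe the same libraries as the tests above and were not tested themselves.

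**Figure D3:**
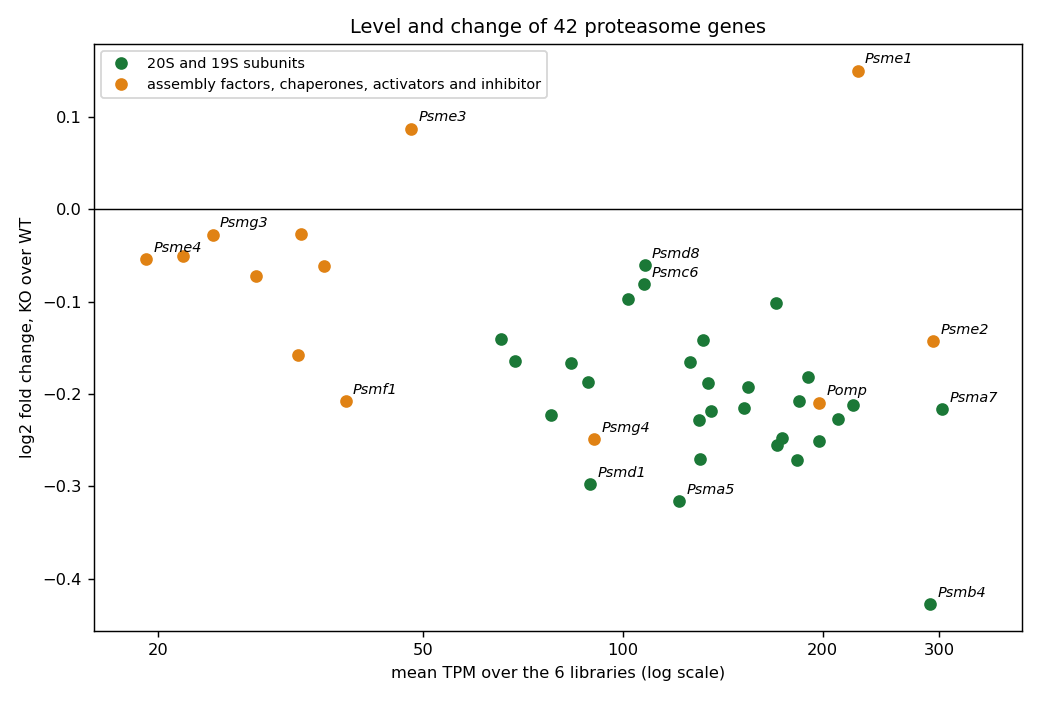
Log2 fold change (KO over WT, vertical axis) against the mean TPM over 6 libraries (horizontal axis, log scale) for 42 genes, one point per gene, with subunits of the 20S core and 19S particle in green and the other genes in orange. More abundant genes tend to lie lower, with Psme1 (241 TPM in KO, 211 TPM in WT) as an abundant gene above 0.

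Members with higher levels tended to have the lower fold changes. Spearman's rho between the mean TPM and the log2 fold change was -0.48 across the 42 genes, -0.40 across the 29 subunits of the 20S core and 19S particle, and -0.20 across the other 13. These are correlations across genes that share the same 6 libraries, and genes are not independent replicates. The correlation was not computed over all genes, so it is not shown to be particular to the members. Of all genes tested 50.2% had a log2 fold change below 0, against 58.0% of those of at least 20 CPM. 

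The KO libraries differed among themselves in some sub-complexes. The median of the alpha ring lay 0.17, 0.19 and 0.27 log2 units below the mean of the WT libraries in KO libraries A, B and C, and within 0.04 of it in the WT libraries. The ATPases lay 0.18, 0.21 and 0.23 units below in the same order, while the lid lay 0.16 units below in each KO library. The activators and inhibitor lay 0.05, 0.02 and 0.09 units below, and their KO and WT libraries overlapped. KO replicate A was the KO library nearest to WT for the alpha ring, the beta subunits and the base, and without it 29 members were called lower.

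**Figure D4:**
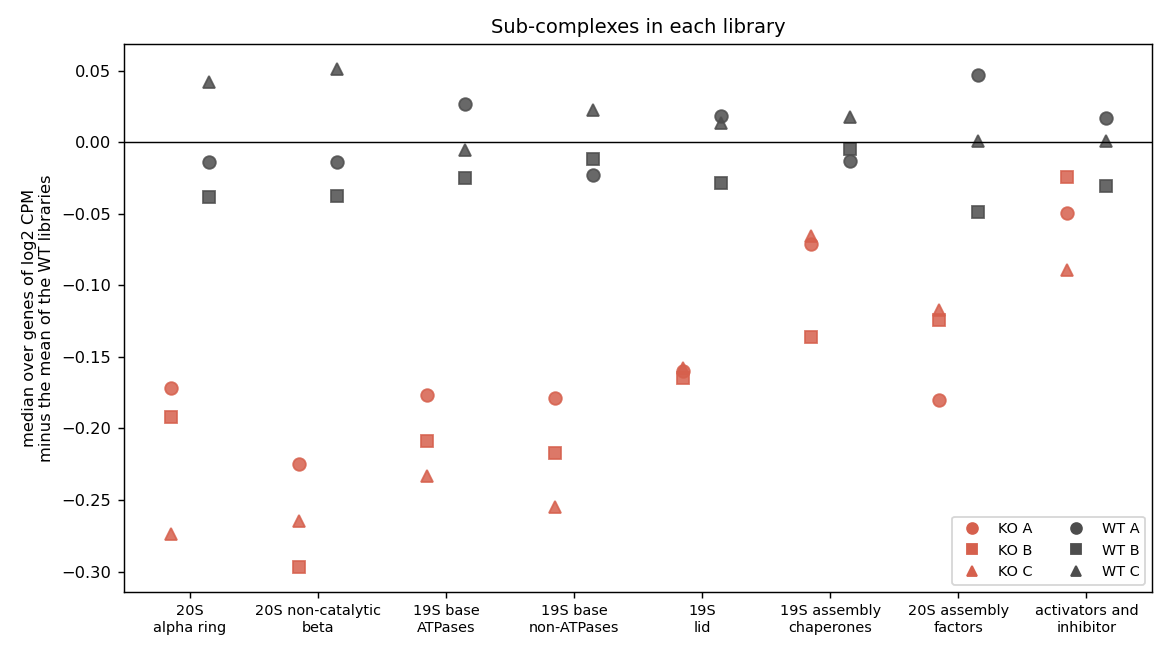
For each sub-complex and library, the median over its genes of log2 CPM minus the mean of the WT libraries (vertical axis), with KO libraries left and WT libraries right of each tick and a symbol for each replicate letter. The medians of KO and WT libraries are apart for every sub-complex but the activators and inhibitor. How often medians of other gene lists are apart was not computed. Of the genes behind these medians, 1 of 3 chaperones and 2 of 5 assembly factors were called lower. In TPM the chaperones did not fall, with sums of 90.5 ± 3.68 in KO and 89.0 ± 1.04 in WT (SD, n = 3 each).

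Of 30 listed genes that work with the proteasome without being among the 42, 29 were found in the files and 27 were tested. There were 7 falls, 1 rise and 19 genes without a call, at a median log2 fold change of -0.07. The falls were 25.9% of the genes tested from this list. Of all genes tested 10.7% were called lower and 12.3% higher. At a mean of at least 20 CPM, which all tested genes of the list but Uchl5 and Zfand2b reach, 18.4% were called lower and 11.3% higher. Vcp, the ATPase that extracts ubiquitinated proteins for degradation, averaged 356 ± 4.39 CPM over KO libraries and 420.2 ± 4.43 CPM over WT libraries (log2 fold change -0.24, edgeR adjusted p = 2.42e-04), with counts that were 75.9% of the reads RSEM assigned to it. Sem1, the smallest lid subunit, averaged 90.5 ± 1.54 CPM over KO libraries and 103 ± 3.04 CPM over WT libraries (log2 fold change -0.19, edgeR adjusted p = 0.00317). Ecpas, an adaptor that binds the 26S particle, fell by 0.21 on the log2 scale. Further falls were Fbxo7, which binds Psmf1, and the Vcp cofactors Nploc4 and Nsfl1c, by 0.19, 0.10 and 0.12 on the log2 scale. Nploc4 was near the threshold (edgeR adjusted p = 0.0481). Zfand5, which binds the 26S particle and stimulates it, rose: 95.3 ± 6.53 CPM over KO libraries and 80.3 ± 0.534 CPM over WT libraries (SD, n = 3 each; log2 fold change 0.25, edgeR adjusted p = 0.00250). Nfe2l1, the transcription factor that restores proteasome genes when the proteasome is inhibited, averaged 555 ± 15.0 CPM over KO libraries and 576 ± 5.70 CPM over WT libraries and was not called (edgeR adjusted p = 0.282). Its processing enzymes Ddi2 and Ngly1 were not called either (adjusted p = 0.607 and 0.325), nor was Nfe2l2 (0.184).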

How the data were processed

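RNA was sequenced from 3 KO and 3 WT libraries with a stranded polyA kit, per the labels' protocols. Per the submitters' processing notes bcl2fastq 2.17, STAR 2.5.1b and RSEM 1.2.28 were used; they name a human build, GRCh38, whereas the identifiers are mouse Ensembl identifiers. Symbols and positions were therefore taken from GENCODE M21 (GRCm38), which matched 50376 of 50600 identifiers (99.56%). The deposited raw counts per gene for the strand holding over 95% of gene counts were used. The deposited RSEM expected counts (estimated reads, rounded here to whole numbers), TPM and FPKM were made by the authors, and TPM also gave the levels between genes. Reads assigned to no gene were 18.4% to 19.8% per library and stayed out of totals. Averaged over genes with counts of at least 100, replicates differed by 5.15 to 8.75 times the counting variance. This mean is over all such genes and was not computed for the members, so the part of counting error in their spread is not given.

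Genes passing filterByExpr were tested with edgeR 4.0.16 (R 4.3.3; TMM factors 0.9937 to 1.012, quasi-likelihood, no block), with Benjamini-Hochberg adjustment over 16938 genes and calls at adjusted p below 0.05. The SE was derived from the F statistic. The method was tested on simulated data. Alternatives were RLE and upper quartile scaling, DESeq2 1.42.0, other filters and counts, limma 3.58.1 on TPM, a replicate block, glmTreat and leaving out each library; robust dispersions were added after the data were seen. The members and lists were chosen with earlier results of these data known. Values in every library are given, per sub-complex, for the member with the smallest p and those with the lowest and highest fold change. Some single gene values are not reported here. Figures were drawn with matplotlib 3.10.9.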

Additional observations from a re-analysis of the deposited data

How the results depend on the processing

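The 30 falls were also called with RLE and upper quartile scaling, DESeq2, both other filters, RSEM expected counts (31 in all), unstranded counts, the replicate block and robust dispersions. Without each library 25 to 29 members fell and 0 to 1 rose; 24 of the 30 were called in all 6 of these fits. Fewer falls were called with glmTreat and with limma on TPM. With glmTreat 9 fell (alpha ring 2, beta 3, ATPases 2, other base subunits 2, lid, chaperones, assembly factors and activators 0) and 0 rose. In the same fit 2 catalytic subunits and 1 associated gene fell, and over all genes 586 fell and 1253 rose. With limma on log2(TPM + 1) 17 members fell (alpha ring 3, lid 3, chaperones 0, assembly factors 1, activators 0), 2 associated genes, and of all genes 758 fell and 1169 rose; on log2(TPM + 0.1) the counts were 16, 3, 3, 0, 0, 0, 2, 738 and 1119. The cause was not tested. On the TPM scales with these pseudocounts, log2 fold changes turned positive for Psmd5 (0.0540 and 0.0554), Psmd9 (0.0122 and 0.0125), Psmg1 (0.00266 and 0.00275), Nfe2l1 (0.0745 and 0.0747) and the median of the chaperones (0.0122 and 0.0125).

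Without each library, the falls called ranged from 5 to 7 in the lid, 0 to 1 of the chaperones, 1 to 2 of the assembly factors, 1 to 2 of the activators and inhibitor (0 to 1 rises), 3 to 5 of the catalytic subunits and 5 to 7 of the associated genes. Over all genes 1152 (without WT replicate C) to 1615 fell and 1477 to 1836 rose. Of the associated genes, 6 fell with RLE, upper quartile scaling, both other filters, RSEM expected counts, the replicate block and robust dispersions, 5 with DESeq2 and 7 with unstranded counts. The log2 fold change of Psmg2 ranged from -0.0999 to 0.0138, positive when KO replicate A or KO replicate C was out, and that of Psmg3 from -0.185 to 0.0680, positive in 4 of the 6 fits. The antioxidant response element core followed by a further A was in 3 members, against 5 for the core.

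The labels state no pairing, so the letters were not taken as pairs. The deviations of KO and WT libraries of the same letter had r = 0.10, 0.16 and -0.08 for A, B and C over 8237 genes. For different letters r ranged from -0.17 to 0.07, below the A and B values but not the C value, so these values do not settle whether letters were paired. The replicate block gave 30 falls and 1 rise among the members and 1744 falls over all genes.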
